A study of Mus musculus with 8 samples.

Results

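The genes that make, store, take up and specify the monoamine transmitters of the brain were followed in 8 mouse brains collected at E15.5 (E for embryonic day). They are 10 of the 54752 genes listed in the count tables, chosen by symbol for their part in monoamine neurons. *Th*, *Ddc*, *Slc6a3*, *Slc18a2*, *Nr4a2* and *Pitx3* stand for dopamine neurons, *Tph2*, *Slc6a4* and *Fev* for serotonin neurons, and *Dbh* for noradrenaline neurons. All 10 passed the filter on low counts and were among the 17865 genes tested. The 4 control brains, 2 females (F36, F37) and 2 males (M30, M31), came from dams left in the home cage. The 4 stress brains, 2 females (F34, F35) and 2 males (M28, M29), came from dams exposed to chronic unpredictable mild stress (CUMS), a changing daily schedule of mild stressors, from E5.5 to E14.5. All animals were wild type C57BL/6 by the labels (C57BL/6Slac in the study's methods), and each library was made from 1 brain. Each group came from a single litter, the controls from 1 and the stress brains from another. An effect of the litter and an effect of stress cannot be told apart here, and the errors and p-values describe differences among littermates.

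Monoamine neurons are few and lie in small groups in the brainstem. Dopamine neurons form in the floor of the midbrain and in smaller groups of the forebrain, serotonin neurons form in the raphe of the hindbrain, and noradrenaline neurons form in the locus coeruleus and the caudal hindbrain. Tyrosine hydroxylase (*Th*) and tryptophan hydroxylase (*Tph2*) perform the rate-limiting steps for catecholamines and for serotonin in neurons, aromatic amino acid decarboxylase (*Ddc*) completes dopamine and serotonin, and dopamine beta-hydroxylase (*Dbh*) turns dopamine into noradrenaline. The vesicular transporter (*Slc18a2*) loads all of these amines into vesicles, and the plasma membrane transporters *Slc6a3* and *Slc6a4* return dopamine and serotonin to the cell. By the time of sampling these neurons are born, and their axons are growing into the forebrain.

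Promoters were read from RefSeq (GRCm38.p6, the assembly also called mm10) as 220 bases before and 20 bases after the annotated start, 5′ to 3′ on the strand of the gene. All 10 genes had an entry, and *Ddc* had 2 promoters. The 5 shown are those of the enzyme and the vesicular transporter that share a motif, and of the 3 serotonin genes, on which the comparison between the groups turns. *Th* lies on chromosome 7, minus strand (window chr7:142899976-142900215), *Slc18a2* on chromosome 19, plus strand (chr19:59260658-59260897), *Tph2* on chromosome 10, minus strand (chr10:115185003-115185242), *Slc6a4* on chromosome 11, plus strand (chr11:76998377-76998616) and *Fev* on chromosome 1, minus strand (chr1:74885389-74885628). Capitals mark matches to the cyclic AMP response element (TGACGTCA) in *Th* and *Slc18a2*, to the GATA motif AGATAA in *Tph2* and *Fev*, and to the TATA box TATAAA in *Tph2*.
Th: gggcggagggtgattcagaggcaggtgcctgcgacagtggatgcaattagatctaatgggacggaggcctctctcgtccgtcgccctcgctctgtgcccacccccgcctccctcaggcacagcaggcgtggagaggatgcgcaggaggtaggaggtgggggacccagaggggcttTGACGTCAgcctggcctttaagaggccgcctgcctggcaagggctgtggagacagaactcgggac
Slc18a2: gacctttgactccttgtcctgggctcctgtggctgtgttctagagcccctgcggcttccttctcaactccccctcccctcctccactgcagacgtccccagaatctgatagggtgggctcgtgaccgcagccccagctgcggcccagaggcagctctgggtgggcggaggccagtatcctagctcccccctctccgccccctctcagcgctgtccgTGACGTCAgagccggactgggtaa
Tph2: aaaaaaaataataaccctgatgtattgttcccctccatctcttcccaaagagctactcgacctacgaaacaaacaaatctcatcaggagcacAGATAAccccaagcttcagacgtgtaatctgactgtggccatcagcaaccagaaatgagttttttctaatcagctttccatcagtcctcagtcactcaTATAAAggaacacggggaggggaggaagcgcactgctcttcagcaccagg
Slc6a4: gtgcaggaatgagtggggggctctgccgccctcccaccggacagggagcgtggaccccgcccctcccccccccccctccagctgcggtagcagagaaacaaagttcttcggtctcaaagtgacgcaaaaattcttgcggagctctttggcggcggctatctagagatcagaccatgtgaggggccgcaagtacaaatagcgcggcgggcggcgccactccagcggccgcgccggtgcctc
Fev: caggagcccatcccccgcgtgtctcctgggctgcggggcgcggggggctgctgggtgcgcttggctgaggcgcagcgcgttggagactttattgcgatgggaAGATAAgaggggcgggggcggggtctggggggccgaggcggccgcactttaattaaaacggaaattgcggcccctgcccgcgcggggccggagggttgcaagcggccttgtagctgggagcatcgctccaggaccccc

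Both strands were searched for 5 motifs. The cyclic AMP response element lay 45 to 38 bases before the start of *Th* and from 4 bases before to 4 bases after the start of *Slc18a2*, and 1.69% of 32851 RefSeq promoters of this length held it. The GATA motif, the target of a family of zinc finger factors that includes the serotonin neuron regulators *Gata2* and *Gata3*, lay 128 to 123 bases before the start of *Tph2* and 118 to 113 bases before that of *Fev*, and was held by 9.31% of all promoters. The NBRE motif AAAGGTCA, to which the orphan receptor encoded by *Nr4a2* binds, was found once, in reverse, 73 to 66 bases before the start of the first *Ddc* promoter, where it overlapped a reversed TATA match, and 1.26% of all promoters held it. The letters of the TATA box were present on either strand in *Ddc*, *Nr4a2* and *Tph2* and in 11.4% of all promoters. In *Tph2* they lay on the strand of the gene, 30 to 25 bases before the start. In *Nr4a2* they were reversed, 164 to 159 bases before the start. The ETS core CCGGAA, the kind of site that the factor encoded by *Fev* recognises, was present in none of the 10 genes and in 12.9% of all promoters, which says only that these letters are not in these windows. The *Slc6a4* window held none of the 5 motifs.

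The libraries held between 25320109 and 29105710 counts. Expression is given as CPM, the count scaled to a common library total after TMM scaling, for one gene across brains, and as TPM, the count per exon length on a common total, for levels of different genes. The labelled tissue was checked with marker sums. The 8 telencephalon markers summed to between 1110 and 1220 CPM and the 9 pan-neuronal markers to between 7270 and 7630 CPM, so all libraries hold brain RNA. The 5 genes of the pineal gland and of mast cells, other sources of serotonin enzymes and transporters, summed to at most 0.948 CPM, with *Crx*, *Cpa3*, *Tpsb2* and *Ms4a2* at or under 3 counts in every brain. The pituitary genes *Cga* and *Pou1f1* were also at or under 3 counts. Among 7 erythroid markers, the embryonic globins *Hba-x* (Log2FC 1.09, edgeR adjusted p = 2.21e-05) and *Hbb-y* (0.84, edgeR adjusted p = 0.00012) were higher in the stress brains and *Hbb-bs* lower (-0.14, edgeR adjusted p = 0.00976), and their relation to the monoamine genes was not tested. *Hoxa5*, *Hoxb5* and *Hoxc5*, which mark the caudal hindbrain and spinal cord, summed to 79.5, 25.5, 36.2 and 33.5 CPM in controls F36, F37, M30 and M31 and to 2.75, 76.8, 1.64 and 25.6 CPM in stress F34, F35, M28 and M29. Stress F34 and M28 thus held far less RNA of these 3 Hox genes than the other 6 brains. The difference was smaller for *Hoxa2*, at 3.95 and 3.49 CPM in F34 and M28 and 4.44 to 6.16 CPM in the others. *Hoxb2* was at 0.797 and 0.627 CPM, against 0.725 to 1.02 CPM. *Slc6a4* and the calls that were lost are also given without stress F34 and M28. The study's methods name the whole brain as the tissue, while its library list names it half_whole_brain. In a bulk sample, fewer cells of a type and less RNA per cell cannot be told apart.

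**Figure D1:**
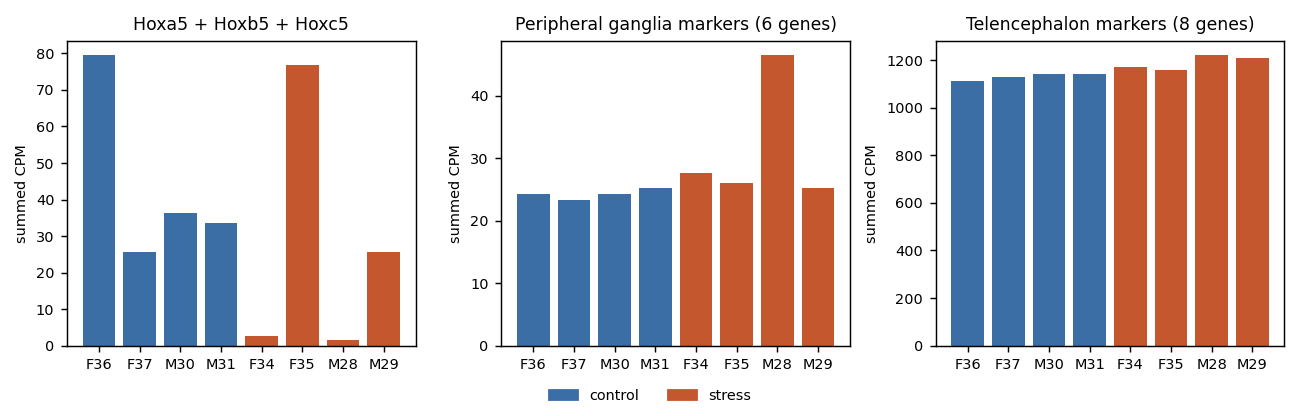
Summed CPM (y axis) in each of the 8 brains (x axis, 1 bar per brain) for the caudal genes *Hoxa5*, *Hoxb5* and *Hoxc5*, for 6 peripheral ganglia markers and for 8 telencephalon markers. The Hox sum is 2.75 CPM in stress F34 and 1.64 CPM in stress M28, the ganglia sum reaches 46.5 CPM in stress M28, and the telencephalon sum is higher in each stress brain than in each control brain.

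Levels of the 10 genes spanned from a mean of 1.18 TPM to 47.4 TPM over the 8 brains. The vesicular transporter *Slc18a2* was highest at 47.4 TPM (range 45.1 to 48.5), followed by *Nr4a2* at 40.0 TPM (38.1 to 43.5), and both stood above *Th* at 10.7 TPM (9.40 to 11.8) without overlap. *Nr4a2* is also expressed in cortical and other neurons that make no monoamine. Which cells gave the *Slc18a2* and *Slc6a4* RNA cannot be told from these bulk samples. Further down came *Ddc* at 8.36 TPM, *Slc6a4* at 4.88, *Tph2* at 4.15, *Slc6a3* at 3.34, *Dbh* at 2.78, *Fev* at 1.82 and *Pitx3* at 1.18. From *Th* downwards the ranges of neighbours in this order overlapped over the 8 brains. Within single brains *Th* exceeded *Ddc* in 8 of 8 and *Ddc* exceeded *Slc6a4* in 8 of 8, whereas *Fev* exceeded *Pitx3* in only 5 of 8. The counts behind these levels were between 1192 and 1359 per library for *Slc18a2*, between 64 and 124 for *Tph2* and between 9 and 20 for *Pitx3*, so that the lowest of these genes carry the widest counting error.

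Stress and control brains were then compared to ask whether exposure of the dam altered the monoamine genes. *Slc6a4*, the serotonin transporter, was the only 1 of the 10 that passed the test, and it was lower in the stress brains. No gene of the 10 was higher. Across all 17865 genes, 7.27% were called lower and 6.49% higher by edgeR's quasi-likelihood test with Benjamini-Hochberg adjustment, so 1 of 10 lower is near the background of these brains. For none of the 10 genes did the CPM ranges of the groups separate, while they separated for 16.4% of all genes (8.22% lower and 8.2% higher in stress brains). The median log2 fold change (Log2FC, stress vs. control) of the 10 was -0.06, beside 0.00 over all genes tested. DESeq2, which called 5.1% of all genes lower and 4.19% higher, called none of the 10. At an unadjusted p under 0.05, edgeR gave the same single gene, beside 13.7% of all genes lower and 13.2% higher.

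**Figure D2:**
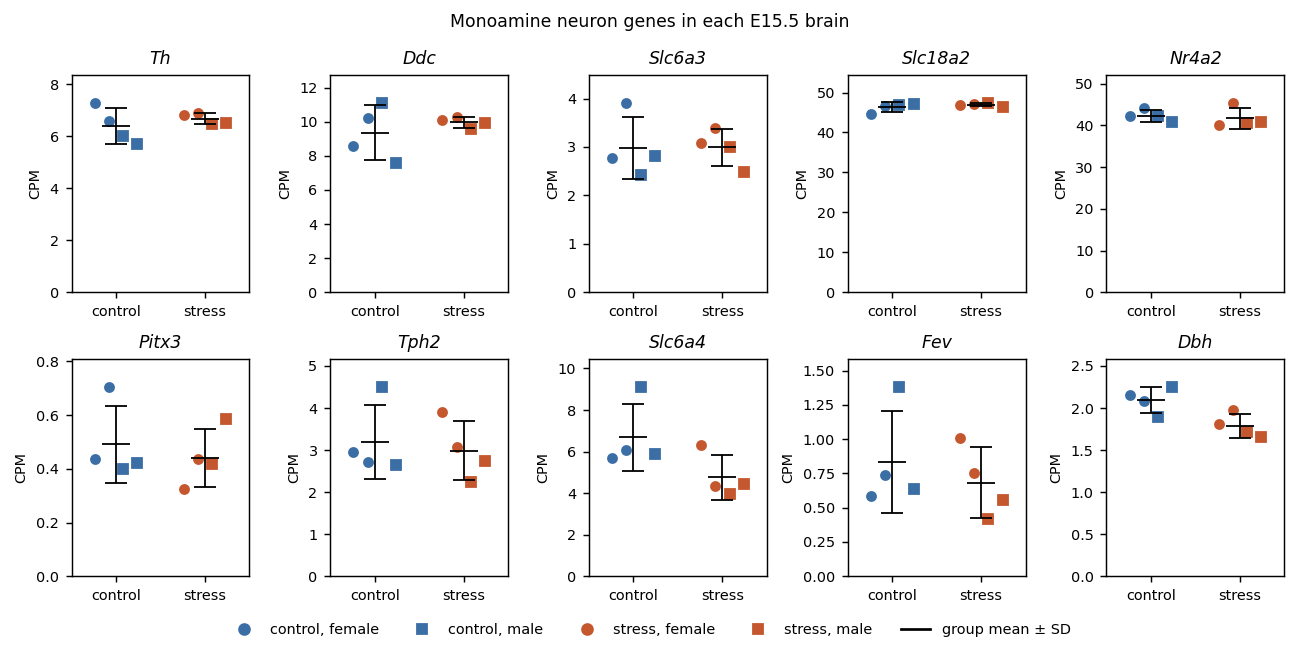
CPM (y axis, from 0) of the 10 genes in each brain, 1 panel per gene, with females as circles, males as squares and the group mean ± SD (n = 4) in black. The groups overlap in every panel, *Slc18a2* lies between 44.6 and 47.4 CPM in all 8 brains, and control M30 is the highest control for *Ddc*, *Tph2*, *Slc6a4* and *Fev*.

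Among the dopamine genes, *Th* was at 7.28, 6.59, 6.02 and 5.69 CPM in controls F36, F37, M30 and M31 and at 6.81, 6.91, 6.48 and 6.49 CPM in stress F34, F35, M28 and M29. The stress values fell inside the control range. The Log2FC was 0.06 (standard error, SE, 0.08, 95% interval -0.11 to 0.24, edgeR's quasi-likelihood test, Benjamini-Hochberg adjusted p = 0.678). *Ddc*, the decarboxylase shared by dopamine and serotonin neurons, was at 8.59, 10.2, 11.1 and 7.56 CPM in the controls and at 10.1, 10.3, 9.55 and 9.95 CPM in the stress brains, again inside the control range (Log2FC 0.09, SE 0.09, interval -0.10 to 0.28, edgeR adjusted p = 0.581). The spread was wider among the controls for both enzymes, with an SD of 1.59 CPM against 0.303 CPM for *Ddc*.

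*Slc18a2* gave the narrowest limits. It was at 44.6, 46.7, 46.9 and 47.2 CPM in the controls and at 47.0, 47.1, 47.4 and 46.4 CPM in the stress brains. Its Log2FC of 0.02 had a 95% interval from -0.06 to 0.09, which leaves room for no more than a fold of 0.961 to 1.07 at this confidence. The brains of each group differed by no more than counting error, since the variance within groups was 0.482 times the counting variance. *Nr4a2*, which specifies and maintains midbrain dopamine neurons, was at 42.2, 44.3, 42.2 and 40.8 CPM in the controls and at 40.1, 45.4, 40.5 and 40.8 CPM in the stress brains, with stress F35 the highest of all 8 (Log2FC -0.03, SE 0.04, interval -0.11 to 0.06).

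The dopamine transporter *Slc6a3* was at 2.77, 3.91, 2.43 and 2.81 CPM in the controls and at 3.08, 3.4, 3.0 and 2.49 CPM in the stress brains, with a Log2FC of 0.00 and an interval from -0.26 to 0.27. Control F37 was the highest and control M30 the lowest of the 8. *Pitx3*, the homeobox factor needed by dopamine neurons of the substantia nigra, was at 0.437, 0.705, 0.399 and 0.422 CPM in the controls and at 0.326, 0.435, 0.418 and 0.587 CPM in the stress brains. Its Log2FC of -0.15 had an interval from -0.77 to 0.47, a wide interval at 9 to 20 counts per library. Over the 6 dopamine genes the median Log2FC was 0.01, with 0 higher and 0 lower.

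**Figure D3:**
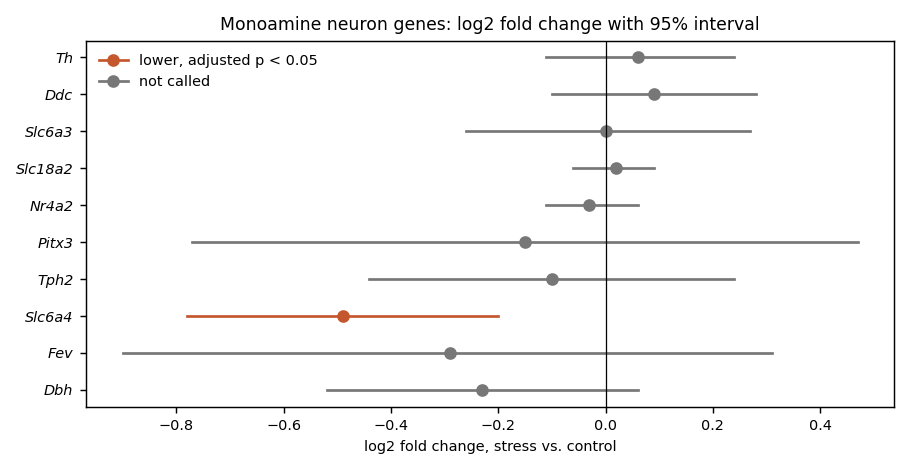
Log2 fold change, stress vs. control (x axis), of the 10 genes (y axis), with points for the edgeR estimate and lines for the 95% interval. The interval of *Slc6a4*, from -0.78 to -0.20, lies below 0, and the intervals of the other 9 genes cross 0, most narrowly for *Slc18a2* and most widely for *Pitx3*.

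The serotonin genes differed between littermates. *Slc6a4* (chr11:76998603-77032340, 15 exons after merging transcripts) was at 5.68, 6.10, 9.11 and 5.87 CPM in controls F36, F37, M30 and M31 and at 6.34, 4.35, 3.94 and 4.42 CPM in stress F34, F35, M28 and M29. Control M30 was far above the other controls, 3 stress brains lay below every control, and stress F34 lay above 3 of the controls, so the groups overlapped. The mean fell from 6.69 CPM ± 1.62 (SD, n = 4) in controls to 4.76 CPM ± 1.07 (SD, n = 4) in stress brains, a Log2FC of -0.49 (SE 0.14, interval -0.78 to -0.20), or a fold of 0.713 (0.583 to 0.871), with an adjusted p of 0.0200 by edgeR's quasi-likelihood test with Benjamini-Hochberg adjustment.

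This call rested on single brains. Without control M30 the Log2FC of *Slc6a4* was -0.28 and the edgeR adjusted p 0.155. The call was also lost without stress F35 (-0.45, edgeR adjusted p = 0.0596), without stress M28 (-0.38, edgeR adjusted p = 0.0998) and without stress M29 (-0.44, edgeR adjusted p = 0.0729), and by DESeq2 (-0.49, adjusted p = 0.24). It was kept in 9 of 14 alternative analyses, with edgeR and DESeq2 adjusted p-values from 3.39e-05 to 0.24 over the 14. Without stress F34 the Log2FC was -0.69 (edgeR adjusted p = 0.00132). The direction was lower in all 14. Without stress F34 and M28 together, the brains of low Hox sum, the Log2FC was -0.61 (edgeR adjusted p = 0.0119).

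*Tph2*, the serotonin-making enzyme of neurons, was at 2.95, 2.71, 4.50 and 2.64 CPM in the controls and at 3.91, 3.08, 2.23 and 2.73 CPM in the stress brains. The highest values of the groups were again those of control M30 and stress F34. Its Log2FC was -0.10 (SE 0.17, interval -0.44 to 0.24, edgeR adjusted p = 0.752), 0.16 without control M30 and -0.27 without stress F34. *Fev*, the ETS factor (also called Pet1) that is confined in the brain to serotonin neurons, was at 0.582, 0.740, 1.38 and 0.633 CPM in the controls and at 1.01, 0.751, 0.418 and 0.553 CPM in the stress brains. Control M30 and stress F34 were once more the highest of their groups, stress M28 the lowest of all 8. The Log2FC of *Fev* was -0.29 (SE 0.29, interval -0.90 to 0.31, edgeR adjusted p = 0.580), 0.14 without control M30 and -0.58 without stress F34.

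The 3 serotonin genes therefore shared the order of brains at the top of each group. Control M30 exceeded the mean of the other 3 controls 1.63-fold for *Tph2*, 1.55-fold for *Slc6a4* and 2.11-fold for *Fev*, and stress F34 exceeded the other 3 stress brains 1.46-fold, 1.5-fold and 1.77-fold. After removal of the group means, the correlation over the 8 brains was 0.939 between *Tph2* and *Slc6a4*, 0.956 between *Tph2* and *Fev* and 0.939 between *Slc6a4* and *Fev*. Ranked by likeness to *Tph2*, *Fev* stood at place 5 and *Slc6a4* at place 11 of 17864 genes. The correlations share these 8 libraries, and control M30 and stress F34 stand highest in their groups for all 3 genes. The variance within groups was 9.17 times the counting variance for *Slc6a4*, 5.68 times for *Tph2* and 3.71 times for *Fev*, so these differences between littermates exceeded counting error. In control M30 the sum of *Hoxa5*, *Hoxb5* and *Hoxc5* was 36.2 CPM, within the range of the controls, and in stress F34 it was 2.75 CPM. The part of dissection in the serotonin values was not tested.

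**Figure D4:**
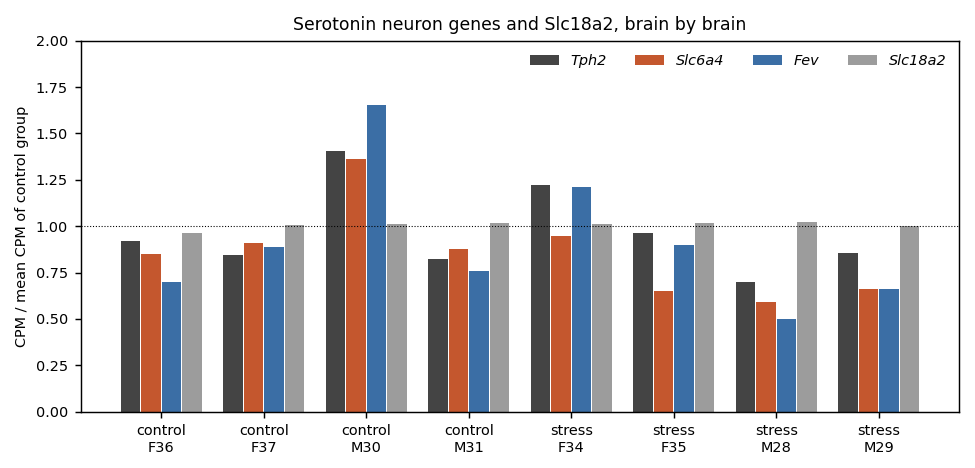
CPM of *Tph2*, *Slc6a4*, *Fev* and *Slc18a2* in each brain (x axis), divided by the mean CPM of the gene in the control group (y axis, from 0, with a dotted line at 1). The serotonin genes are high together in control M30 and stress F34 and are low together in stress M28, while *Slc18a2* stays near 1 in all 8 brains.

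The genes closest to each transmitter gene in this variation among littermates were then ranked, as a description over 8 brains. They were *Asic1*, *Hba-a1* and *Gtpbp2* for *Th* (correlations of 0.970 to 0.974), *A130006I12Rik*, *4931428F04Rik* and *Vmn1r90* for *Slc6a3* (0.964 to 0.985), *Gm26896*, *Rnf165* and *Trem2* for *Tph2* (0.958 to 0.970), *Zfp740*, *Mtcl1* and *Gm44684* for *Slc6a4* (0.971 to 0.993) and *Ext1*, *Arpp21* and *Rabgap1l* for *Dbh* (0.979 to 0.984). *Th* and *Slc6a3*, which dopamine neurons share, correlated at 0.336, and *Th* and *Dbh* at 0.224.

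*Dbh*, the noradrenaline enzyme, was at 2.15, 2.08, 1.89 and 2.25 CPM in the controls and at 1.81, 1.98, 1.71 and 1.66 CPM in the stress brains. Stress M28 and M29 lay below every control and stress F34 also did, while stress F35 at 1.98 CPM exceeded control M30. The Log2FC was -0.23 (SE 0.14, interval -0.52 to 0.06, edgeR adjusted p = 0.324). *Dbh* and *Th* are also expressed in peripheral sympathetic ganglia. The 6 peripheral ganglia markers summed to 23.3 to 25.2 CPM in the controls and to 27.7, 26.0, 46.5 and 25.3 CPM in the stress brains. The list is mainly of sensory genes, and 2 of its 6 were called higher in the stress brains by edgeR, beside 6.49% of all genes. *Avil* was at 1.89 to 2.14 CPM in the controls and at 2.72, 2.13, 5.72 and 2.21 CPM in the stress brains, so that stress M28 stood far above the rest and the groups overlapped (Log2FC 0.66, adjusted p = 0.0339 by edgeR and 0.306 by DESeq2). *Prdm12* was at 5.11 to 6.61 CPM and at 6.83 to 7.98 CPM (Log2FC 0.36, adjusted p = 0.00737 by edgeR and 0.0291 by DESeq2). The part of ganglia in the *Th* and *Dbh* values was not tested.

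Ratios of 2 genes within a brain do not depend on the scaling of the library. After the values above had been seen, all 45 ratios between the 10 genes were compared. The groups separated for 2 of the 45. *Tph2* relative to *Slc6a4* was 0.519, 0.445, 0.494 and 0.449 in the controls and 0.617, 0.709, 0.566 and 0.617 in the stress brains, a log2 difference of 0.39. *Th* relative to *Dbh* was 3.39, 3.17, 3.19 and 2.53 in the controls and 3.76, 3.50, 3.80 and 3.92 in the stress brains, a log2 difference of 0.29. Each reached the smallest p that 4 brains against 4 allow (exact permutation test, two-sided, p = 0.0286), and neither passed Benjamini-Hochberg adjustment over the 45 ratios (exact permutation test, adjusted p = 0.514).

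The difference between stress and control was also set apart by sex, with 2 brains against 2 in each. Of the 10 genes, 0 passed the adjusted test of the sex by stress interaction, beside 1 gene (0.0056%) of all 17865 tested. In edgeR the 3 serotonin genes passed at an unadjusted p under 0.05, each lower in males than in females. Of all genes, 6.31% passed in either direction and 2.98% in this direction. The unadjusted DESeq2 p of the interaction was 0.0398 for *Tph2*, 0.0293 for *Slc6a4* and 0.0577 for *Fev*, so *Fev* did not pass there. The Log2FC was 0.31 in females and -0.52 in males for *Tph2* (edgeR adjusted p of the interaction = 0.62), -0.13 and -0.84 for *Slc6a4* (edgeR adjusted p = 0.621) and 0.42 and -1.04 for *Fev* (edgeR adjusted p = 0.647). The highest control was the male M30 and the highest stress brain the female F34. Without control M30 none of the 3 passed at an unadjusted p under 0.05, and the Log2FC in males was -0.09, -0.49 and -0.38 in the same order (edgeR adjusted p of the interaction from 0.781 to 0.8).

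The wider pathway was counted by list. Of 14 genes of dopamine neuron specification and identity, 2 were higher and 2 lower, beside 6.49% higher and 7.27% lower among all genes, with a median Log2FC of -0.01. *Neurog2*, a proneural factor of dopamine progenitors and of many others, rose from 70.6 CPM ± 4.80 to 83.7 CPM ± 4.91 (SD, n = 4; Log2FC 0.24, SE 0.04, edgeR adjusted p = 0.000169), and *Otx2*, the forebrain and midbrain homeobox factor, rose from 38.1 CPM ± 2.81 to 43.2 CPM ± 1.28 (Log2FC 0.19, SE 0.04, edgeR adjusted p = 0.00294). The GDNF receptor *Ret* fell from 21.8 CPM ± 2.45 to 18.0 CPM ± 0.544 (Log2FC -0.28, SE 0.06, edgeR adjusted p = 0.00317) and the retinaldehyde dehydrogenase *Aldh1a1*, found in ventral nigral neurons, from 6.66 CPM ± 0.565 to 5.24 CPM ± 0.569 (Log2FC -0.34, edgeR adjusted p = 0.0152). The first 3 were called in all 14 alternatives and *Aldh1a1* in 8, since its call was lost without control F36, F37 or M31 or stress F35 (edgeR adjusted p from 0.0524 to 0.0581), without stress F34 and M28 together (0.0824) and by DESeq2 (0.0525). *Neurog2* and *Otx2* are not confined to dopamine neurons. Beside them, 5 of 8 telencephalon markers and 5 of 9 radial glia markers were higher in the stress brains. The part of region and cell makeup in these calls was not tested.

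Of 8 genes of serotonin neuron specification, 3 were higher, beside the same 6.49% of all genes, and 0 lower (median Log2FC 0.10). The GATA factor *Gata3* was at 19.9 CPM ± 1.72 in controls and 22.7 CPM ± 0.971 in stress brains (SD, n = 4; edgeR adjusted p = 0.0265) and *Tph1*, the hydroxylase of the pineal gland and gut, at 0.250 CPM ± 0.111 and 0.518 CPM ± 0.0854 (edgeR adjusted p = 0.0375), at 4 to 17 counts per library. Both calls depended on the alternative, holding in 6 and 5 of 14. The call of *Gata3* was lost without control F36, F37 or M31 or stress F34 or M29 (edgeR adjusted p from 0.0587 to 0.133), and that of *Tph1* without control F36 or M31 or any 1 of the stress brains (0.0565 to 0.145). Without stress F34 and M28 together, the edgeR adjusted p was 0.125 for *Gata3* and 0.136 for *Tph1*. Both were also lost without the sex term (edgeR adjusted p of 0.0515 and 0.0548) and by DESeq2 (adjusted p of 0.0728 and 0.172). *Insm1*, the most abundant of the list, was at 114 and 121 CPM (edgeR adjusted p = 0.0598). Of 8 tested noradrenaline genes 1 was higher, the transcription factor *Tfap2b*, at 143 CPM ± 7.70 and 165 CPM ± 7.78 (SD, n = 4; Log2FC 0.21, SE 0.03, edgeR adjusted p = 0.000153), called in all 14 alternatives. Its relative *Tfap2a*, with 14.64% of its exon bases covered by other genes, was at 11.4 and 11.8 CPM (edgeR adjusted p = 0.725). Over the 8 brains *Tfap2b* had a mean of 93.8 TPM, beside 2.78 TPM for *Dbh*. *Gata3* had a mean of 20.7 TPM, beside 1.82 TPM for *Fev*. Which cells gave the *Tfap2b* and *Gata3* RNA cannot be told from these bulk samples.

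Enzymes of cofactor synthesis, storage and breakdown gave 0 higher and 0 lower among 13 tested genes, with a median Log2FC of -0.06. At an unadjusted p under 0.05, edgeR had 4 lower and 0 higher, beside 13.7% and 13.2% of all genes, and DESeq2 called 0 after adjustment. The aldehyde dehydrogenase *Aldh2* was at 67.1 and 64.1 CPM (Log2FC -0.06, SE 0.04) and monoamine oxidase A (*Maoa*) at 45.0 and 43.4 CPM (Log2FC -0.05, SE 0.04). *Gch1*, the first enzyme of tetrahydrobiopterin synthesis and named here after its values were seen, was at 2.26, 3.07, 2.50 and 2.60 CPM in the controls and at 2.25, 2.05, 1.92 and 2.04 CPM in the stress brains. Its groups did not overlap, a separation that 8.22% of all genes show in this direction, and it did not pass the test (Log2FC -0.34, SE 0.14, edgeR adjusted p = 0.103).

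The receptors through which the amines act were lower on balance. Of 27 receptors of dopamine, serotonin and noradrenaline, 19 were tested and 5 were lower in the stress brains, beside the 7.27% of all genes, with 0 higher. The Log2FC was below 0 for 18 of the 19, with a median of -0.23 beside 0.00 for all genes. The groups did not overlap, in the lower direction, for 8 of the 19, beside 8.22% of all genes. The called receptors were *Drd2*, *Htr1b*, *Htr5b*, *Htr7* and *Adra1b*, of which DESeq2 called *Drd2*, *Htr1b* and *Htr7*. The other 8 receptors, among them *Drd3*, *Drd5* and *Htr2b*, reached at most 13 counts in a library and were not tested.

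The dopamine D2 receptor *Drd2*, a receptor of striatal neurons and an autoreceptor of dopamine neurons, (chr9:49340627-49408177, plus strand) was at 10.7, 10.4, 11.1 and 10.8 CPM in controls F36, F37, M30 and M31 and at 8.69, 9.05, 7.98 and 7.60 CPM in stress F34, F35, M28 and M29. Every stress brain lay below every control (Log2FC -0.37, SE 0.07, interval -0.52 to -0.22, edgeR adjusted p = 0.00100). The D1 receptor *Drd1* was at 8.10 CPM ± 0.548 and 7.82 CPM ± 0.592 (SD, n = 4; Log2FC -0.05, SE 0.08, edgeR adjusted p = 0.729). Whether the difference of *Drd2* exceeds that of *Drd1* was not tested.

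*Htr1b*, an inhibitory serotonin receptor of axon terminals, was at 10.1, 10, 10.1 and 11.4 CPM in the controls and at 7.89, 8.69, 7.91 and 8.15 CPM in the stress brains (Log2FC -0.35, SE 0.07, edgeR adjusted p = 0.00176). Another gene, *D430036J16Rik*, covers 18.04% of its exon bases. *Htr7*, a receptor that raises cyclic AMP, was at 12.0, 12.4, 12.5 and 11.5 CPM in the controls and at 9.42, 10.2, 9.41 and 9.43 CPM in the stress brains (Log2FC -0.34, SE 0.07, edgeR adjusted p = 0.00104). The groups did not overlap for either gene, and *Drd2*, *Htr1b* and *Htr7* were called in all 14 alternatives. All 11 tested serotonin receptors had a Log2FC below 0 before rounding, and their median was -0.34.

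*Htr5b* was at 1.24, 0.740, 0.617 and 0.914 CPM in the controls and at 0.579, 0.632, 0.349 and 0.345 CPM in the stress brains, with 10 to 34 counts per library and overlapping groups (Log2FC -0.89, SE 0.26, edgeR adjusted p = 0.0225), and was called in 7 of 14 alternatives, not without control F36 or M31 or stress F34, M28 or M29 (edgeR adjusted p from 0.051 to 0.107) and not by DESeq2 (adjusted p = 0.102). The alpha-1B adrenergic receptor *Adra1b* was at 7.61, 7.23, 6.89 and 7.17 CPM in the controls and at 6.12, 6.28, 5.12 and 6.18 CPM in the stress brains, without overlap (Log2FC -0.29, SE 0.08, edgeR adjusted p = 0.0237), and was called in 8 of 14, not without control F36 or M31 or stress F34 or M28 (edgeR adjusted p from 0.0514 to 0.102) and not by DESeq2 (adjusted p = 0.0937). The most abundant adrenergic receptor, *Adra2a*, was at 19.1 and 17.3 CPM (Log2FC -0.14, edgeR adjusted p = 0.0843). Without stress F34 and M28 together, the edgeR adjusted p was 0.125 for *Htr5b* and 0.2 for *Adra1b*. Beside the receptors, edgeR called 4 of 9 pan-neuronal markers lower (*Stmn2*, *Snap25*, *Syt1* and *Rbfox3*, Log2FC -0.13 to -0.09) and 0 higher, beside 7.27% and 6.49% of all genes. DESeq2 called 3 lower, not *Snap25* (adjusted p = 0.344), beside 5.1% of all genes. *Elavl4* and *Dcx* lay above 0 (Log2FC 0.03 and 0.06). The sums were 7380 to 7630 CPM in controls and 7270 to 7570 CPM in stress brains. The part of neuronal content in the receptor values was not tested.

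**Figure D5:**
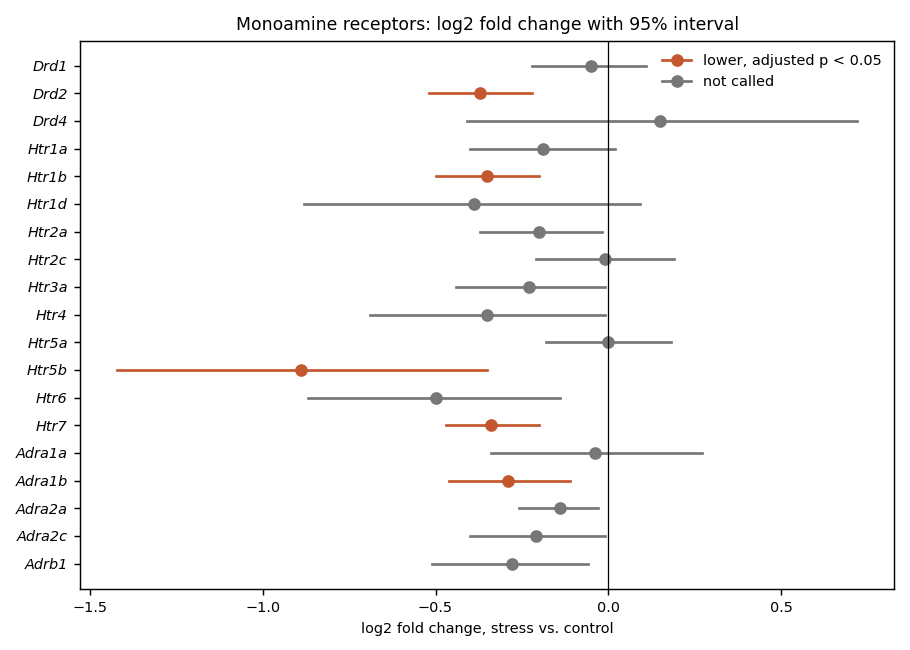
Log2 fold change, stress vs. control (x axis), of the 19 tested monoamine receptors (y axis), with 95% intervals as lines and the 5 called receptors in orange. The points of 18 receptors lie below 0 before rounding, *Drd4* alone lies above, and *Drd2*, *Htr1b*, *Htr5b*, *Htr7* and *Adra1b* are called lower.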

How the data were processed

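RNA of 8 E15.5 mouse brains, 4 control and 4 stress with 2 females and 2 males in each, was analysed. These are 8 of the study's animals, and the counts of the others were not analysed here. According to the submitters' processing notes and the study's methods, TopHat2 2.1.1 placed the paired reads on mm10, and featureCounts 1.6.3 summed fragments over the exons of a gene. The authors deposited raw counts, with no normalization and no filter. No strand option is given for the counting, so a read in exons shared by genes of opposite strands cannot be assigned to either. Symbols came from the gene identifiers, of which 54723 of 54752 were matched.

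Genes were kept by filterByExpr (minimum count 10, by group), scaled by TMM and tested with edgeR 4.0.16 (R 4.3.3, glmQLFit and glmQLFTest, sex and condition in the model). Adjustment was by Benjamini-Hochberg over all genes tested, with calls at 0.05. The standard error is the Log2FC divided by the square root of the F value, and intervals are 95% intervals from the fit. The interaction model added sex by condition. Log2 CPM values for the correlations had a prior count of 2. The fit was tested on simulated data. The exact permutation test of 4 against 4 cannot go below 0.0286 (two-sided). Alternatives were DESeq2 1.42.0 (an alternative because the study's own batch term could not be set for these libraries), relative log expression or upper-quartile scaling, no filter, no sex term and each brain left out. The omission of stress F34 and M28 together was added after their Hox levels were seen.

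The genes and lists were chosen with earlier results of these data known. Named genes are the 10 genes, in each of 7 pathway lists the called genes and the 2 of highest mean CPM, and the 3 genes closest in correlation to *Th*, *Slc6a3*, *Tph2*, *Slc6a4* and *Dbh*, and others are named as chosen later. Some listed genes enter the counts but are not reported here by name. Promoter sequences came from RefSeq. The 10 marker lists were summed per brain and compared by exact permutation, and none passed adjustment (adjusted p from 0.143 to 0.600).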

Additional observations from a re-analysis of the deposited data

Results flagged for a closer look

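Among the 160 groups of 4 brains examined, 10 had a brain set apart from the other 3 by Dixon's criterion, which chance gives in about 5% of groups. Control M30 stood apart for *Tph2* (4.50 CPM) and *Slc6a4* (9.11 CPM). Stress F35 stood apart for *Nr4a2* (45.4 CPM) and for *Htr7* (10.2 CPM), and control F37 for *Pitx3* (0.705 CPM). Control M31 stood apart for *Htr1b* (11.4 CPM). Stress F34 stood apart for *Gchfr*, the feedback protein of the cofactor enzyme (0.507 CPM), stress M29 for the ascorbate-recycling cytochrome *Cyb561* (32.7 CPM) and stress M28 for *Adra1b* (5.12 CPM). The sum of the 6 peripheral ganglia markers stood apart in stress M28 (46.5 CPM).

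For *Fev* and *Pcbd2*, a gene of cofactor recycling, both stress brains of one sex lay on one side of both controls of that sex, and both of the other sex lay on the opposite side. With 2 brains against 2 in each sex such an order can arise by chance, and its share over all genes was not counted. The log2 interaction, male minus female, was -1.45 for *Fev* (edgeR adjusted p = 0.647) and 1.18 for *Pcbd2* (edgeR adjusted p = 0.446), and neither passed adjustment. *Pcbd2* was at 2.44 and 2.4 CPM in control females, 1.48 and 1.74 in stress females, 1.38 and 1.44 in control males and 2.34 and 1.93 in stress males.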

How the results depend on the processing

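Of 734 values recomputed under an alternative, 629 were judged unchanged. A count of genes was judged unchanged when it equalled the main count or lay within a fixed ratio of it, so some of these counts differed. With DESeq2, 748 genes were higher in all, 1 serotonin identity gene was higher, 1 dopamine identity gene was lower, 0 of the 10 monoamine genes and 0 adrenergic receptors were lower, *Slc6a4* was not called (Log2FC -0.49) and 2 genes passed the interaction. Without a filter on low counts, 1 cofactor gene was lower and 37 genes passed the interaction. Without stress F34 and M28 together, 741 genes were higher, 1 serotonin identity gene was higher, 1 dopamine identity gene and 0 adrenergic receptors were lower, and the Log2FC turned to 0.02 for *Nr4a2* and 0.07 for *Pitx3*. With each brain left out in turn, 736 to 1057 genes were higher and 854 to 1308 lower (lowest for both without stress M29), 0 to 3 serotonin identity genes were higher, and 1 to 2 dopamine identity genes, 0 to 1 of the 10 genes, 0 to 1 cofactor genes and 0 to 2 adrenergic receptors were lower, and 0 to 6 genes passed the interaction. The Log2FC then ranged from -0.01 to 0.21 for *Ddc*, -0.06 to 0.01 for *Nr4a2*, -0.36 to 0.11 for *Pitx3*, -0.27 to 0.16 for *Tph2*, -0.69 to -0.28 for *Slc6a4* and -0.58 to 0.14 for *Fev*, and the interaction from -0.31 to 0.25 for *Ddc*, -0.16 to 0.34 for *Slc6a3* and -0.10 to 0.08 for *Nr4a2*. As a mean log2 CPM over the list in place of the sum, the difference turned to -0.13 for brainstem cholinergic neurons and 0.26 for erythroid cells, on the log2 scale. The cause of these shifts was not tested. No paired analysis was possible because the labels give the brains of the 2 groups no shared numbers. Depth limits the genes of low count, such as *Pitx3*, *Fev*, *Tph1* and *Htr5b*.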
